A study of Vitis vinifera with 24 samples.

Results

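The effect of trehalose in leaves under osmotic stress was measured by RNA-seq in grapevine (Vitis vinifera 'Thompson Seedless'). Leaves given trehalose with PEG6000 for 48 h (3 libraries) were compared with leaves given PEG6000 alone for 48 h (3 libraries), so that both sides were under PEG6000. These 6 libraries were chosen by their treatment labels from 24 libraries in 8 groups of 3 biological replicates. The other groups were untreated control leaves, for which no time is stated, leaves given trehalose without stress for 48 h, leaves under NaCl for 48 h with and without trehalose, and leaves at 4 ℃ for 48 h, called cold here, with and without trehalose. All leaves came from self-rooted greenhouse cuttings of this 1 cultivar. Doses, the order in which trehalose and PEG6000 were applied, and whether replicates were separate plants are not stated in the labels. The p-values below therefore speak of how far these libraries varied, which may be technical.

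Trehalose is a sugar made of a pair of glucose units. In most flowering plants it is present in traces and is made through trehalose 6-phosphate, which is known as a signal of sucrose supply, and supplied trehalose is split to glucose by trehalase. PEG6000 is a large polymer that lowers the water potential around the plant without entering most cells, and drought-type responses of leaves are known to include abscisic acid signalling, stomatal closure, protective proteins and compatible solutes. Genes in the deposited table carry identifiers only, and no identifier could be paired with a name or function. The tissue label could therefore not be checked against leaf markers, and genes are described below by how they behaved in the 8 groups.

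Expression was given as FPKM, fragments scaled to transcript length and to the mapped fragments of the library, and the depth of sequencing is unknown. The column totals ran from 597567 to 637648 FPKM. With trehalose and PEG6000, 18311 ± 87.3 genes (SD, n = 3) reached 1 FPKM, and with PEG6000 alone 17655 ± 28.1 genes (SD, n = 3), and the groups did not overlap. The 10 most abundant genes held 10.6 ± 0.12% and 9.69 ± 0.067% of the FPKM (SD, n = 3). For both measures the two-sided exact permutation test gave p = 0.1, which is the smallest value that 3 libraries against 3 allow, and 0.1 after adjustment over these 2 tests.

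Leaves given trehalose with PEG6000 were far from leaves given PEG6000 alone. Pearson correlations of log2(FPKM + 1) across genes, which are not independent replicates, were 0.997 within the PEG6000 group and 0.994 to 0.996 within the group given both, against 0.869 to 0.874 between the groups. In a principal component analysis of these 6 libraries the first component held 95.7% of the variance, with PEG6000 libraries at -67.5 to -67.1 and libraries given both at 66.1 to 68.5. The root mean square log2 distance between the group means was 0.95. Leaves given both were nearer to leaves given trehalose with NaCl (0.54), trehalose (0.57) or NaCl (0.59) and to control (0.64) than to PEG6000 leaves, and farther from cold leaves (1.08).

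Replicates of trehalose with PEG6000 varied more than those of any other group. The median SD of a gene on the log2 scale was 0.0817 in this group and 0.0624 to 0.0663 in the other 7. Library 1 stood apart from the other two, at root mean square distances of 0.205 and 0.201, while libraries 2 and 3 differed by 0.165. PEG6000 libraries differed from each other by 0.157 to 0.159. Without library 1 of trehalose with PEG6000, 2216 genes were at least 2-fold higher and 1763 at least 2-fold lower, against 2191 and 1745 with all libraries.

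Trehalose changed expression widely under PEG6000. Over 20053 genes that reached 1 FPKM in 3 or more of the 24 libraries, limma called 15341 (76.5%) at an adjusted p below 0.05, 8735 higher (43.6%) and 6606 lower (32.9%). In whole leaves a change in the number of cells of a type and a change of RNA per cell cannot be told apart. Most of these changes were small: 11405 called genes (74.3% of those called) changed less than 2-fold, and the median change over the 20053 genes was 0.08 on the log2 scale. For 10673 genes (53.2%) the 95% interval of the change lay within 1.5-fold in either direction. At 2-fold or more 3936 genes (19.6%) were called. Of these 2191 (10.9% of all genes tested) were higher, the raised genes below, and 1745 (8.70%) were lower, the lowered genes below. Raised outnumbered lowered genes on the deposited scale and with common-sum (2268 and 1700) and quantile scaling (1888 and 1817); median-of-ratios scaling gave 1841 raised and 1960 lowered genes, and among all called genes 7090 rises and 7958 falls.

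Steep falls outnumbered steep rises. Genes at least 4-fold lower numbered 576 and those at least 4-fold higher 450. At 8-fold there were 219 lower and 88 higher, at 16-fold 99 and 12, and at 32-fold 43 and 5. The order was the same under the 3 other scalings at each of these limits. With a pseudocount of 0.1 it turned at 4-fold, with 934 lower and 1170 higher, and not at 8-fold, with 458 and 364. The median log2 change was 1.46 in raised and -1.64 in lowered genes. The 3 libraries of one group all lay above the 3 of the other for 2187 of the raised and 1745 of the lowered genes. Over all 20053 genes such separation was seen in 42.7% in the higher and 33.0% in the lower direction, so for genes chosen on this contrast it adds nothing.

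**Figure D1:**
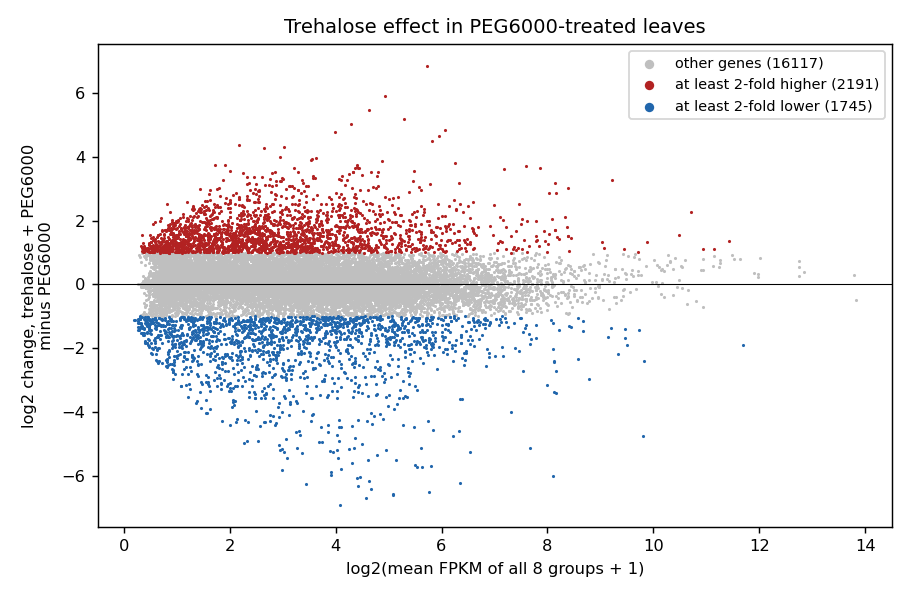
Log2 change of each gene between leaves given trehalose with PEG6000 and PEG6000 alone (y axis) against log2 of its mean FPKM over the 8 groups plus 1 (x axis), 1 point a gene. The 2191 raised genes are red and the 1745 lowered genes blue, and the lower side reaches large changes more often, with 219 genes at least 8-fold lower against 88 higher.

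The balance of rises and falls varied with how abundant a gene was over all 24 libraries. Among 1973 genes with a mean below 1 FPKM, 12.3% were raised and 10.8% lowered. Among 5394 genes with a mean of 1 to 5 FPKM, 15.5% were raised and 9.14% lowered. Among 7254 genes of 5 to 20 FPKM the shares were 9.72 and 7.83%. Among 4548 genes of 20 to 100 FPKM the order turned, with 7.45% raised and 8.66% lowered, and the 884 genes above 100 FPKM gave 7.47 and 8.60%. The median log2 change of the 5 classes was 0.08, 0.19, 0.07, -0.03 and -0.05, highest at 1 to 5 FPKM. These shares and medians are on the deposited scale only. Median-of-ratios scaling moved the median change of all genes from 0.08 to -0.02. The class at which the order turns may therefore depend on the scaling. Fold changes on the log2(FPKM + 1) scale understate the change of low genes, most of all below 1 FPKM.

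In amount of transcript, the share of the lowered genes fell and that of the raised genes rose by a smaller amount. Lowered genes made up 18.2, 18.2 and 18.1% of the FPKM in the 3 PEG6000 libraries and 4.66, 4.58 and 4.67% in the 3 libraries given trehalose too. Raised genes went from 3.64, 3.64 and 3.67% to 12.6, 12.5 and 12.5%. These shares describe the genes that the contrast selected. The other groups entered the filter and the estimate of spread, but not the change that selected the genes, and placed them as follows. Lowered genes held 2.66 ± 0.010% of the FPKM in control and 2.62 ± 0.020% in trehalose leaves (SD, n = 3). They held 6.11 ± 0.020% under NaCl and 12.3 ± 0.025% in the cold, and 3.33 ± 0.020% and 11.1 ± 0.053% when trehalose was added to these stresses. Raised genes held 9.23 ± 0.012% in control, 10.5 ± 0.061% in trehalose, 6.37 ± 0.020% in NaCl and 6.58 ± 0.0081% in cold leaves (SD, n = 3). With trehalose they held 8.90 ± 0.021% under NaCl and 6.70 ± 0.019% in the cold.

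**Figure D2:**
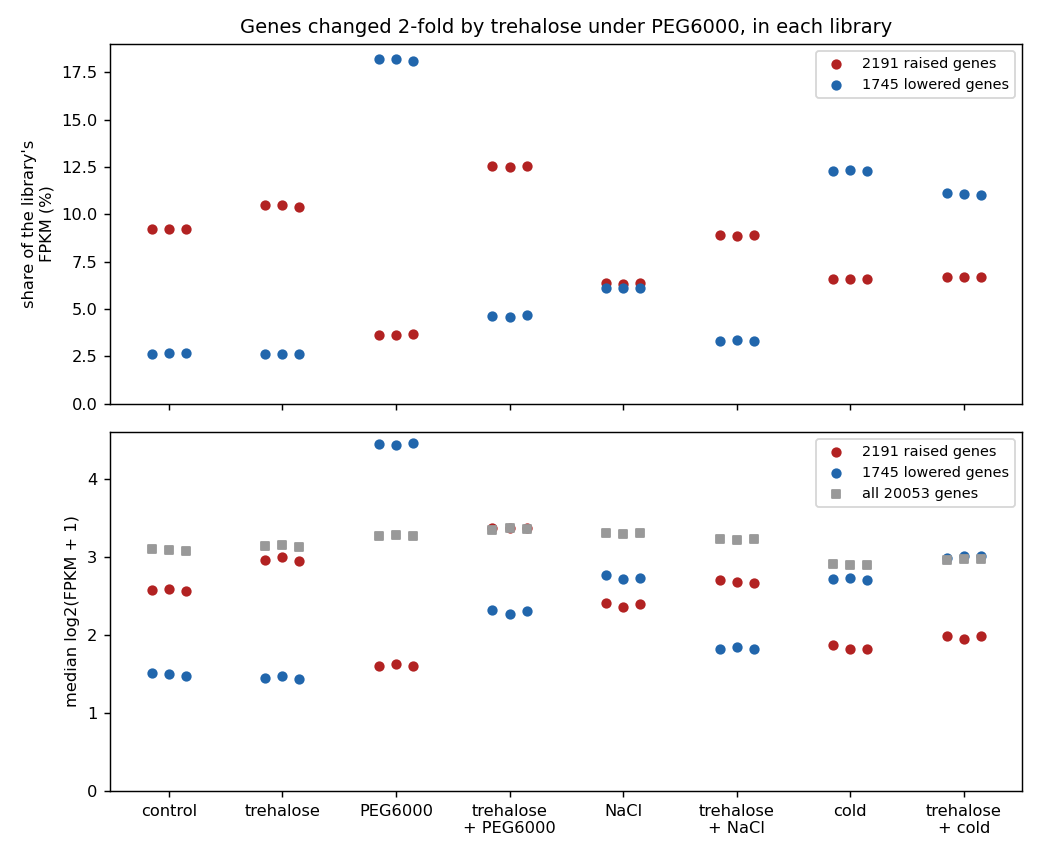
Share of the FPKM of each library held by the raised and lowered genes (upper panel, percent) and their median log2(FPKM + 1) beside that of all genes (lower panel), 1 point a library, 3 libraries a group. Lowered genes hold 18.1 to 18.2% of the FPKM in PEG6000 libraries and 4.58 to 4.67% with trehalose, and they are also high in both cold groups.

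The typical level of the raised genes with trehalose and PEG6000 lay above that of every other group. Their median log2(FPKM + 1) was 3.36, against 2.97 in trehalose, 2.57 in control and 1.60 in PEG6000 leaves. It was 2.38 under NaCl, 2.68 with trehalose and NaCl, 1.84 in the cold and 1.97 with trehalose in the cold, where all genes had medians of 2.90 to 3.36 across the groups. Of the 2191 raised genes 1494 (68.2%) had their highest mean of the 8 groups in trehalose with PEG6000, where 21.0% of all genes did; the selection on this group raises that share. Leaving aside the pair of groups that selected them, 1284 (58.6%) had their highest mean in leaves given trehalose without stress, against 15.1% of all genes.

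The lowered genes were high in PEG6000 leaves, which selected them, and had medians below that of all genes in control, NaCl and cold leaves. Their median log2(FPKM + 1) was 4.44 in PEG6000 leaves, 2.30 with trehalose and PEG6000, 1.49 in control and 1.44 in trehalose leaves. Under NaCl it was 2.74 and with trehalose 1.84, whereas in the cold it was 2.70 and with trehalose 3.00. All genes had medians of 3.26 in PEG6000, 3.09 in control, 3.29 in NaCl and 2.90 in cold leaves, and of 2.96 with trehalose in the cold. Leaving aside the groups that selected them, 720 of 1745 (41.3%) were highest under NaCl, 537 (30.8%) with trehalose in the cold and 395 (22.6%) in the cold, against 33.1, 11.5 and 14.6% of all genes.

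Set beside control, both lists had medians above control in leaves given both treatments, and so had all genes, by a smaller amount. These comparisons share libraries with the one that selected the genes, so they are given side by side and their overlap is not read. The 2191 raised genes had a median log2 difference from control of -0.81 under PEG6000 alone and of 0.72 with trehalose and PEG6000, where 760 of them (34.7%) were called at least 2-fold higher and 9 at least 2-fold lower than control. The background for these calls was 9.52 and 0.778% of all genes. The median log2 difference from control over all genes was 0.05 under PEG6000 alone and 0.17 with trehalose and PEG6000. The 1745 lowered genes had medians of 2.29 under PEG6000 alone and 0.50 with trehalose and PEG6000. In the latter 447 of them (25.6%) were called at least 2-fold higher and 35 at least 2-fold lower than control. Relative to leaves given trehalose without stress the medians with both treatments were 0.37 for raised and 0.53 for lowered genes, against 0.15 for all genes. At least 2-fold higher were 281 raised and 471 lowered genes (background 6.17%).

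The genes with the largest differences in FPKM were identified only by number. Vitvi19g00581 was at 886, 938 and 914 FPKM with PEG6000 and at 4674, 4285 and 4313 FPKM with trehalose and PEG6000. All 3 libraries given both lay above every other library of the series, of which the highest were the cold libraries at 2404, 2406 and 2427 FPKM. The log2 change was 2.28 (SE 0.03). In the other backgrounds trehalose raised this gene under NaCl, from 394 ± 3.8 to 1705 ± 22 FPKM (SD, n = 3), and lowered it in the cold, from 2412 ± 12 to 1281 ± 64 FPKM. Without stress it was at 1187 ± 18 FPKM in control and 1120 ± 23 FPKM with trehalose, a difference that missed the threshold (limma adjusted p = 0.0528).

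Vitvi07g02246 was at 1463, 1462 and 1542 FPKM with PEG6000 and at 4008, 3743 and 3778 FPKM with trehalose and PEG6000, a log2 change of 1.37 (SE 0.03). It was highest in control, at 5108, 5045 and 4970 FPKM, so leaves given both treatments stayed below control. It also rose with trehalose under NaCl, from 1477 ± 26 to 3435 ± 74 FPKM (SD, n = 3). Without stress trehalose lowered it, from 5041 ± 69 to 4092 ± 24 FPKM (SD, n = 3; log2 change -0.30, limma adjusted p = 2.83e-09). In the cold it was at 1391 ± 13 FPKM without and 1371 ± 19 FPKM with trehalose (limma adjusted p = 0.558).

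Vitvi05g04015 was at 7860, 8400 and 7908 FPKM with PEG6000 and at 2227, 2129 and 2141 FPKM with trehalose and PEG6000, a log2 change of -1.90 (SE 0.03). Control libraries lay lower still, at 1306, 1337 and 1316 FPKM. Vitvi05g01757 went from 4168, 4234 and 4069 FPKM to 161, 150 and 152 FPKM, a log2 change of -4.75 (SE 0.05). In control it was at 38.1, 35.5 and 39.3 FPKM and in cold leaves at 1418, 1368 and 1383 FPKM. The groups with and without trehalose under PEG6000 did not overlap for any of these 4 genes, which their choice required. The choice also required a call, and their limma adjusted p was at most 4.48e-23. That value uses a spread shared by all 8 groups, though replicates of trehalose with PEG6000 varied most. With only the groups compared in the fit, the limma adjusted p of these 4 genes was at most 1.63e-08. Trehalose lowered Vitvi05g04015 and Vitvi05g01757 in the other backgrounds too, by smaller amounts. The log2 change of Vitvi05g01757 was -2.40 (SE 0.05) under NaCl, -0.52 in the cold and -0.45 without stress.

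Few genes were switched fully on or off. Taking genes below 1 FPKM in all 3 libraries of one group and at 10 FPKM or more in all 3 of the other, trehalose under PEG6000 switched 21 genes on and 68 off. These limits were applied to all 35840 genes of the table, of which 16953 to 16985 reached 1 FPKM in control libraries. The share of all genes that meets the limits in each group is not given, so the counts below only describe the switched genes. Of the 68, 58 were below 1 FPKM in every control library and 64 in every library given trehalose without stress. Under NaCl 26 of them were below 1 FPKM in every library without trehalose and 56 with it. In the cold the numbers were 28 without and 17 with trehalose, and 4 and 10 of the 68 were at 10 FPKM or more in all 3 libraries. Of the 21 genes switched on, 7 were at 10 FPKM or more in every control library, 10 in every trehalose library and 5 in every cold library, while 2, 1 and 4 were below 1 FPKM in all libraries of these groups.

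**Figure D3:**
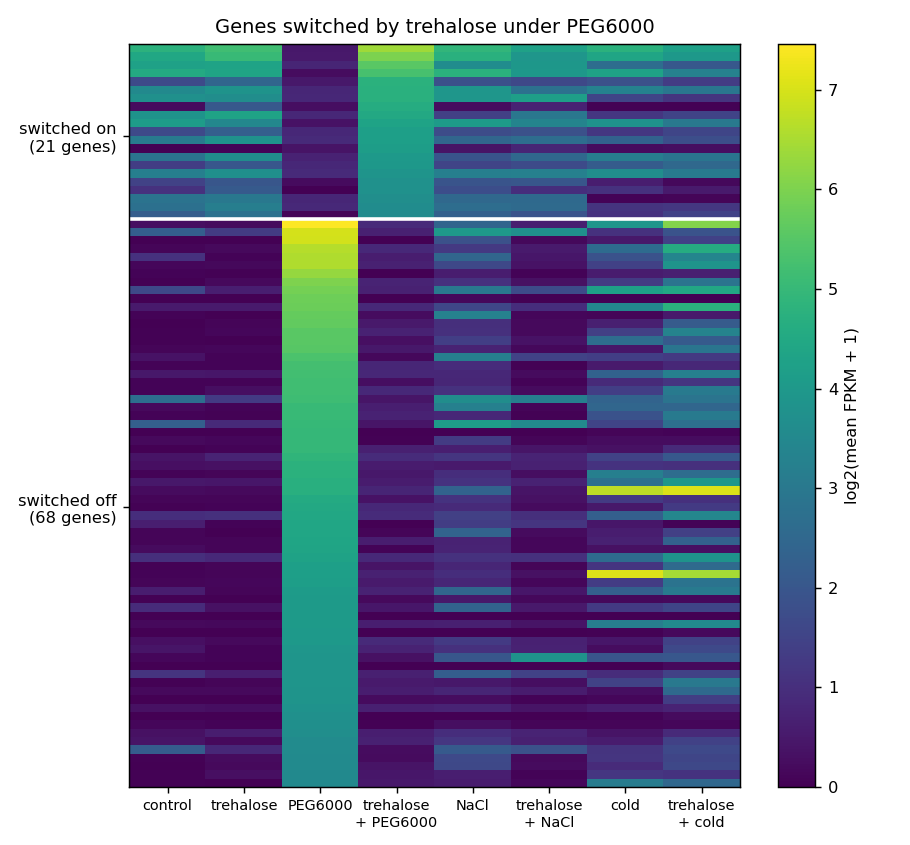
Mean expression, as log2(mean FPKM + 1) in colour, of the 21 genes switched on (upper block) and the 68 switched off (lower block) by trehalose under PEG6000, 1 line a gene, in the 8 groups of 3 libraries. The genes switched off are low in control and trehalose leaves, and 10 of the 68 reach 10 FPKM in all 3 libraries of trehalose in the cold.

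The most abundant genes among those switched on had similar patterns across the groups. Vitvi02g01358 was at 0.112, 0.558 and 0.553 FPKM with PEG6000 and at 81.0, 84.6 and 83.9 FPKM with trehalose and PEG6000. In the other 6 groups its means ran from 18.1 to 35.2 FPKM, so PEG6000 leaves were low and leaves given both were high beside all others. Vitvi05g02019 behaved alike, at 0.288, 0.585 and 0.419 FPKM against 64.8, 61.0 and 62.1 FPKM, with means of 14.2 to 31.5 FPKM elsewhere.

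PT_newGene_23, an identifier of a second kind in the table, was at 174, 176 and 176 FPKM with PEG6000 and at 0.777, 0.839 and 0.908 FPKM with trehalose and PEG6000. In the cold trehalose moved it the other way, from 14.8, 14.4 and 13.6 FPKM to 66.8, 65.4 and 66.1 FPKM. The log2 changes were -6.58 (SE 0.07) and 2.14 (SE 0.07), and their difference of -8.72 (SE 0.09) was called with a limma adjusted p of 1.88e-26. Vitvi02g01408 went from 128, 126 and 124 FPKM to 0.854, 0.517 and 0.433 FPKM under PEG6000. All 3 of the latter values lay below its control libraries, at 3.91, 3.84 and 3.25 FPKM.

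The effect of trehalose was then set beside its effects without stress, under NaCl and in the cold. These 4 effects share no library. The effect was widest under PEG6000, with a root mean square log2 change of 0.95 against 0.27 without stress, 0.45 under NaCl and 0.31 in the cold. At least 2-fold changes were called for 227 genes (1.13%) without stress, 890 (4.44%) under NaCl and 236 (1.18%) in the cold, against 3936 (19.6%) under PEG6000. Across all 20053 genes, which are not independent, the effect under PEG6000 correlated with that under NaCl with Pearson's r of 0.61 (rho 0.64), with that without stress with 0.35 (rho 0.27) and with that in the cold with -0.04 (rho 0.13).

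Genes that trehalose raised without stress were mostly raised under PEG6000 too. Of the 205 genes (1.02%) at least 2-fold higher without stress, 161 were among the raised genes, which is 78.5% of the former and 7.35% of the latter list. Of the 22 genes (0.110%) at least 2-fold lower without stress, 17 were among the lowered genes (77.3 and 0.974% of the lists). The 161 genes had a median log2 change of 1.82 under PEG6000 and 1.24 without stress, but 0.53 under NaCl and 0.09 in the cold. Their median was 2.34 to 2.40 FPKM in control libraries and 6.85 to 7.02 FPKM in trehalose libraries. It was 1.97 to 2.05 FPKM in PEG6000 libraries and 10.1 to 11.3 FPKM in libraries given both.

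Counting changes of any size, and so including these 161, 1276 of the 2191 raised genes (58.2%) were called higher with trehalose without stress and 109 lower, where 16.7% and 12.3% of all genes were. Their median change was small, at 0.27 on the log2 scale. With median-of-ratios scaling the split was 1204 and 136, and quantile normalization gave 1157 and 129. For 1362 of them (62.2%) the 95% interval of the effect without stress lay within 1.5-fold. Of the 1745 lowered genes 392 (22.5%) were called lower without stress and 240 (13.8%) higher. Their median was -0.03, and 1476 of 1745 (84.6%) had an interval within 1.5-fold, against 90.0% of all genes.

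Under NaCl a larger share of the lowered than of the raised genes was called in the same direction. Falls were also commoner than rises over all genes there on the deposited scale. Of the 1745 lowered genes 1376 (78.9%) were called lower with trehalose under NaCl and 53 higher, where 32.0 and 19.9% of all genes were, and the median log2 change was -0.59. At 2-fold, 512 genes were shared, 29.3% of the lowered genes and 71.4% of the 717 genes (3.58% of all) lowered under NaCl. These 512 genes had a median of 32.1 FPKM over their means in PEG6000 leaves and 4.39 FPKM when trehalose was added. Under NaCl it was 8.96 FPKM and with trehalose 2.03 FPKM, and in control 1.43 FPKM. Of the raised genes 1300 (59.3%) were called higher with trehalose under NaCl and 173 lower, with a median of 0.28, and 106 were at least 2-fold higher (4.84% of the raised genes, 61.3% of the 173 genes, or 0.863% of all, raised under NaCl). By median-of-ratios factors 76.3% of the lowered genes were called lower and 63.2% of the raised genes higher. After quantile normalization the shares were 74.7 and 66.5%.

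In the cold a subset of the lowered genes moved the opposite way. Of the 170 genes (0.848%) that trehalose raised at least 2-fold in the cold, 104 (61.2%) were among those it lowered at least 2-fold under PEG6000, 5.96% of the lowered genes, while 7 were among the raised genes. Of the 66 genes (0.329%) at least 2-fold lower in the cold, 20 (30.3%) were among the lowered and 10 (15.2%) among the raised genes. Over all genes 8.70% were lowered and 10.9% raised. The 104 genes had a median of 31.4 to 33.2 FPKM in PEG6000 libraries and 1.39 to 1.60 FPKM in libraries given both. In cold libraries the median was 3.60 to 3.72 FPKM and with trehalose in the cold 11.1 to 11.5 FPKM. Control libraries (0.382 to 0.460 FPKM) and trehalose libraries (0.336 to 0.459 FPKM) had low medians. Their median log2 changes with trehalose were -3.17 under PEG6000, -0.84 under NaCl, 0.02 without stress and 1.38 in the cold, so the median under NaCl had the sign of that under PEG6000. The share of 61.2% was 62.2 to 66.4% under the 3 other scalings and 47.8% (221 of 462 genes) with a pseudocount of 0.1. Over all lowered genes the cold effect was mixed, with 651 called higher (37.3%) and 397 lower (22.8%), against 26.5 and 17.1% of all genes. These splits moved with the scaling, to 587 and 481 with median-of-ratios factors and 570 and 437 with quantile normalization.

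**Figure D4:**
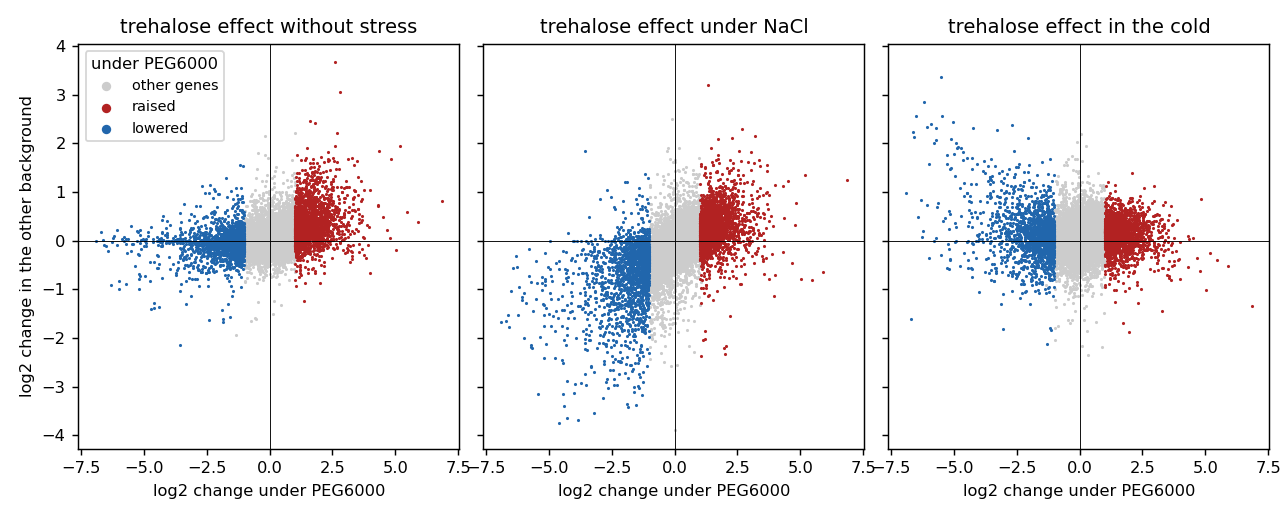
Log2 change with trehalose under PEG6000 (x axis) against the log2 change with trehalose without stress, under NaCl and in the cold (y axes of the 3 panels), 1 point a gene. Raised genes are red and lowered genes blue. Lowered genes extend downwards under NaCl (median -0.59) and include 104 genes at least 2-fold higher in the cold.

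The differences between these effects were tested as interactions. The effect under PEG6000 differed from that without stress for 13529 genes (67.5%), from that under NaCl for 12034 (60.0%) and from that in the cold for 13717 (68.4%). Differences of at least 2-fold were called for 3364 (16.8%), 2784 (13.9%) and 3849 genes (19.2%). Of the 2191 raised genes 2099 had a higher effect under PEG6000 than without stress, 2150 than under NaCl and 2181 than in the cold, where 38.3, 40.1 and 36.4% of all genes did. For 2070 (94.5%) it was higher than in all 3, as for 26.3% of all genes. Of the 1745 lowered genes 1741, 1493 and 1735 had a lower effect, where 29.2, 19.9 and 32.0% of all genes did. For 1487 (85.2%) it was lower than in all 3, as for 16.4% of all genes, while 93 had a higher effect than under NaCl. The lists were selected on the PEG6000 libraries, which raises these shares. For the difference from the effect under NaCl the direction over all genes depended on the scaling. It was 8047 higher (40.1%) and 3987 lower (19.9%) as deposited, 5253 and 6211 by median-of-ratios factors, and 6245 and 5293 after quantile normalization. The median difference moved from 0.13 to -0.03 and 0.01.

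For many genes the 3 other effects were bounded. The 95% intervals without stress, under NaCl and in the cold all lay within 1.5-fold for 809 of the raised genes (36.9%) and 441 of the lowered genes (25.3%), against 13903 of all 20053 genes (69.3%). On the log2(FPKM + 1) scale a gene near 0 FPKM with and without trehalose also lies within this limit. For such a gene the interval does not show that trehalose had no effect. Of these, Vitvi19g01790 was at 0.877, 0.779 and 0.661 FPKM with PEG6000 and at 23.9, 25.6 and 26.8 FPKM with trehalose and PEG6000. Control libraries lay between, at 12.5, 12.0 and 12.4 FPKM, and trehalose libraries were at 12.2, 11.3 and 11.2 FPKM. Smaller effects on Vitvi19g01790 were called under NaCl (log2 change 0.29) and in the cold (-0.41). In the cold its means were low, at 1.89 FPKM without and 1.18 FPKM with trehalose, where this scale understates the change. Vitvi08g00942 went from 2.44, 2.13 and 1.96 FPKM to 43.6, 46.3 and 46.6 FPKM, near its trehalose libraries at 44.3, 50.4 and 42.7 FPKM. Its smaller effects were called in all 3 other backgrounds, at 0.32 without stress, -0.28 under NaCl and 0.42 in the cold. Vitvi18g02707 was at 56.8, 56.6 and 52.2 FPKM with PEG6000 and was listed at 0 in all 3 libraries given both. It was also listed at 0 in every control, trehalose and cold library, and at 0.331 FPKM or less under NaCl. Vitvi05g04163 was at 32.0, 31.0 and 28.5 FPKM with PEG6000 and listed at 0 in all 3 libraries given both, as in every control library. Vitvi18g02707 and Vitvi05g04163 reached 1 FPKM only in libraries of PEG6000 alone, so their intervals in the other backgrounds describe values near 0.

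On the log2(FPKM + 1) scale, only 1 gene was at least 2-fold higher with trehalose in all 4 backgrounds, and only 1 at least 2-fold lower. These counts depend on the limit and the scale. With a pseudocount of 0.1 the genes raised 2-fold went from 205 to 580 without stress and from 170 to 462 in the cold. The number shared by all 4 at that pseudocount is not given. Both genes were chosen for a call in each background, so their small p-values follow from the choice. Vitvi03g01388 was at 43.9, 43.7 and 42.7 FPKM with PEG6000 and at 287, 251 and 255 FPKM with trehalose and PEG6000. It went from 81.3 ± 1.1 to 255 ± 2.2 FPKM without stress, from 16.3 ± 0.75 to 60.8 ± 1.3 FPKM under NaCl and from 13.1 ± 0.17 to 28.6 ± 0.26 FPKM in the cold (SD, n = 3). Libraries given trehalose with PEG6000 overlapped those given trehalose alone. The log2 changes were 2.58, 1.64, 1.84 and 1.07, each with an SE of 0.04, and the limma adjusted p was at most 1.64e-16.

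Vitvi10g01778 was at 66.4, 67.5 and 67.2 FPKM with PEG6000 and at 7.43, 6.76 and 6.21 FPKM with trehalose and PEG6000. Without stress it went from 4.11 ± 0.30 to 1.31 ± 0.089 FPKM, under NaCl from 13.4 ± 0.53 to 5.04 ± 0.65 FPKM and in the cold from 78.9 ± 3.6 to 31.5 ± 0.75 FPKM (SD, n = 3). The log2 changes were -3.13, -1.14, -1.26 and -1.30, each with an SE of 0.07, and the limma adjusted p was at most 2.83e-12.

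A small number of genes moved in opposite directions with trehalose under PEG6000 and without stress. Of the 22 genes lowered at least 2-fold without stress, 1 (4.55%) was raised at least 2-fold under PEG6000, and of the 205 raised without stress, 10 (4.88%) were lowered. Over all genes 10.9% were raised and 8.70% lowered under PEG6000, so these opposite changes were no more frequent than in genes at large. Vitvi10g00451 was at 6.97, 7.18 and 6.76 FPKM with PEG6000 and at 20.3, 20.4 and 18.6 FPKM with trehalose and PEG6000. Without stress it went from 6.18, 6.49 and 7.05 FPKM to 1.79, 3.04 and 1.87 FPKM. Control and PEG6000 libraries overlapped, and trehalose moved them in opposite directions. In the cold trehalose lowered this gene too, with a log2 change of -0.78 (SE 0.10), and under NaCl it raised it, with 0.84 (SE 0.10).

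Vitvi16g01310 went from 42.2, 38.7 and 42.1 FPKM to 12.9, 10.6 and 11.2 FPKM under PEG6000 and from 2.01, 2.99 and 2.36 FPKM to 7.29, 6.65 and 8.12 FPKM without stress. Trehalose also lowered Vitvi16g01310 under NaCl and in the cold, with log2 changes of -0.35 and -0.86 (SE 0.10). For this gene the rise without stress was the only rise of the 4 backgrounds. Vitvi13g04271 went from 4.84, 3.85 and 4.95 FPKM to 1.78, 1.27 and 1.30 FPKM under PEG6000, and from 1.83, 1.49 and 1.79 FPKM to 6.68, 7.41 and 6.83 FPKM without stress. The groups did not overlap in either background. Trehalose also raised this gene under NaCl and in the cold, with log2 changes of 1.37 and 1.09 (SE 0.10), so that PEG6000 gave the only fall of the 4 backgrounds.

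**Figure D5:**
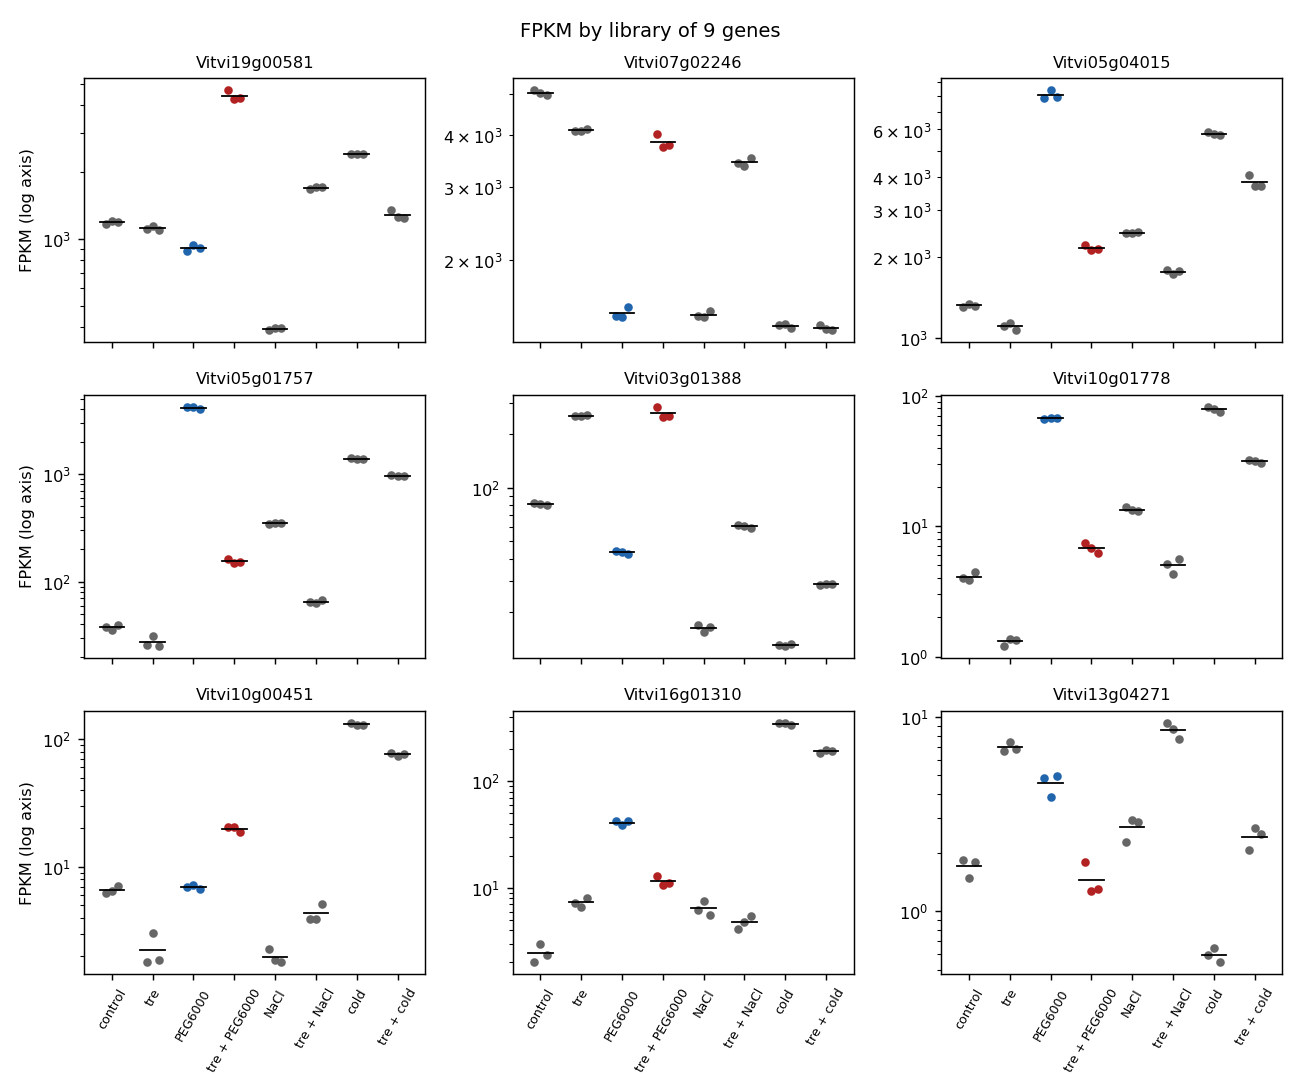
FPKM of 9 genes in each of the 24 libraries (log axis, 1 point a library, bars at group means), with PEG6000 libraries blue and trehalose with PEG6000 libraries red. Vitvi19g00581 is highest with trehalose and PEG6000, and Vitvi13g04271 rises with trehalose in each background other than PEG6000.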

How the data were processed

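The authors deposited 1 table of FPKM for 35840 genes and 24 samples, with replicates not pooled. Tools named in the submitters' processing notes, without role or order, are StringTie 2.1.3b, SAMtools 1.9, HISAT2 2.1.0 and fastp 0.20.0. Build, annotation and strandedness were not given in these sources, and near-identical or overlapping genes may have shared reads. Columns were matched to samples by name, with 0 left unused. Depth is unknown: over 1761 genes above 0 and below 0.2 FPKM in 2 PEG6000 libraries, no 2% window held more than 1.87% of their ratios, so no whole reads could be recovered for a count test. A few abundant genes can also shift the FPKM of all others.

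The 20053 genes that reached 1 FPKM in 3 or more libraries were transformed to log2(FPKM + 1). limma 3.58.1 in R 4.3.3 was fitted with 1 mean for each of the 8 groups, 16 residual degrees of freedom and a variance trend. P-values are two-sided with Benjamini-Hochberg adjustment within each comparison. A call is an adjusted p below 0.05, and 2-fold is an absolute log2 change of at least 1.

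Named genes were at most 2 that rose and 2 that fell per group of genes, since 0 identifiers matched the reference table and 706 are PT_newGene identifiers. They were the called genes with the largest FPKM difference and no overlap, the most abundant switched genes, and those with the largest log2 changes among genes moving in opposite directions under PEG6000 and without stress, changed in all 4 backgrounds, or bounded in the other 3 at a mean of 5 FPKM or more. Gene lists by pathway or cell type could not be matched and were not tested. The comparison, members and lists were chosen with earlier results of these data known. Same-numbered replicates were not paired: the deviations of PEG6000 and trehalose with PEG6000 libraries correlated at -0.088, 0.035 and -0.046. Alternatives covered the pseudocount, the filter, 3 scalings, the samples in the fit, the replicate block, the variance model and leaving out each library. Plots used matplotlib 3.10.9 in Python 3.11.15.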

Additional observations from a re-analysis of the deposited data

Results flagged for a closer look

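The effect of trehalose under PEG6000 differed between backgrounds by the interaction test in limma. The effect under PEG6000 differed from that without stress for 13529 genes, from that under NaCl for 12034 and from that in the cold for 13717. For the 3 genes named as moving in opposite directions under PEG6000 and without stress, the log2 effect under PEG6000 minus that without stress was 2.63 for Vitvi10g00451 (SE 0.14, adjusted p = 7.82e-14), -3.03 for Vitvi16g01310 (SE 0.14, adjusted p = 2.95e-15) and -2.74 for Vitvi13g04271 (SE 0.14, adjusted p = 3.72e-14). These 3 genes were chosen for called effects of at least 2-fold in opposite directions. Their large differences and small p-values therefore follow from the choice.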

How the results depend on the processing

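Limits: groups hold 3 libraries, depth is unknown, and FPKM cannot separate a change of a gene from a change of its library's total. Of 141 alternative counts 137 stayed within 1.5 times the reported value. Testing only genes that average 5 FPKM or more, a smaller set, 5461 genes were called higher, 1110 were raised and 1038 lowered 2-fold. With limits of 0.5 and 5 FPKM, 32 genes were switched on; the cause was not tested. Leaving out each library in turn gave 8289 to 8694 genes called higher, 6331 to 6496 lower, 2173 to 2216 raised and 1732 to 1763 lowered 2-fold. It gave 22 to 24 genes switched on and 69 to 75 switched off. A library left out can only add switched genes, so these counts could not fall and are no check of that result. They are among the 141 alternative counts. For the differences from the effects without stress, under NaCl and in the cold, leaving out each library gave 13065 to 13628, 11493 to 12208 and 13300 to 13832 genes. With the replicate block 8717 genes were called higher and 6605 lower, and 13472, 11948 and 13669 differed; same-numbered libraries were not paired and no count moved by over 1.5 times. The fold limits and the overlap with the cold were also tried under other scalings and a pseudocount of 0.1, chosen after seeing the data. With that pseudocount the raised genes numbered 3049 and the lowered 2154. All 253 alternative values of the 17 named genes under PEG6000 kept their direction and their call. These genes were picked for large changes in the same libraries, so this does not extend to other genes.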

Other observations

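The table holds 2 kinds of identifier. Of 475 PT_newGene identifiers that passed the filter, 84 (17.7%) were lowered and 38 (8.00%) raised by trehalose under PEG6000, against 8.48 and 11.0% of 19578 Vitvi identifiers. By the number that follows Vitvi, which in grapevine gene naming stands for the chromosome, with 00 for unplaced genes, the share of raised genes ran from 6.71% at 00 to 15.3% at 03, and that of lowered genes from 6.10% at 13 to 12.3% at 16. No test was made of these shares.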
